A study of Mus musculus with 3 samples.

Results

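The NR4A family of orphan nuclear receptors has 3 genes in the mouse, Nr4a1 (Nur77), Nr4a2 (Nurr1) and Nr4a3 (NOR-1). They were taken by symbol from the 24481 gene rows of the data, and each symbol stood on 1 row. The tissue was skeletal muscle from mice of the outbred ICR stock at postnatal day 42, with 1 library from each of 3 groups. The labels call them control, exercise control and exercise SQH, and the title of the study names Sasa quelpaertensis leaf extracts and fatigue. The labels used here name neither the muscle, the exercise, the time of sampling after it, the SQH dose, nor whether muscle of several animals was pooled. All values are levels from 3' end sequencing, in which 1 read marks 1 transcript end, so levels of different genes can be set side by side without correcting for transcript length. The deposited values are on a log2 scale and, judged by their spacing, are read counts adjusted for library size. Estimated depth was 10.8 M reads for the control library, 8.12 M for the exercise control and 12.4 M for SQH. Where 3 values of a gene follow each other, they are log2 levels in that order. With 1 library per group there is no replicate error and no p-value. The ± beside a difference is the standard error of counting reads, which leaves out variation between animals and between library preparations.

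NR4A receptors are transcription factors for which no classical hormone ligand is needed: their ligand pocket is filled by bulky side chains, and their activity is set mainly by how much of the protein is made. Their genes are immediate early genes, switched on within a short time by beta-adrenergic signalling through cyclic AMP and CREB, by calcium and by contraction. In muscle they are known for induction by endurance exercise and for effects on glucose, glycogen and fatty acid genes. NR4A proteins bind the element called NBRE as monomers, and Nur77 and Nurr1, unlike NOR-1, can also pair with the retinoid X receptors.

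The promoters of the 3 genes are shown because CREB acts through the cyclic AMP response element (CRE), and because the genes did not move in 1 direction in these data. The sequences are RefSeq's, from 250 bases before to 50 bases after the annotated start, in build GRCm38.p6 (the assembly called mm10). Each gene had 1 window, at 1 annotated start, and windows at its other annotated starts were not scanned. Capitals mark the CRE half-site, TGACG, or CGTCA where it lies on the other strand.
Nr4a1, chr15:101266596-101266895, plus strand: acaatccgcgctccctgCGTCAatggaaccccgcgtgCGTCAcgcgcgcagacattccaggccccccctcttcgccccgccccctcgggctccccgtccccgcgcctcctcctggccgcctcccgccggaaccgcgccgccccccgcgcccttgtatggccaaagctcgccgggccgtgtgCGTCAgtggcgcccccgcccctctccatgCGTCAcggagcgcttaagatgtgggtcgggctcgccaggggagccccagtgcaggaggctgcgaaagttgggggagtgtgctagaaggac
Nr4a2, chr2:57123954-57124253, minus strand: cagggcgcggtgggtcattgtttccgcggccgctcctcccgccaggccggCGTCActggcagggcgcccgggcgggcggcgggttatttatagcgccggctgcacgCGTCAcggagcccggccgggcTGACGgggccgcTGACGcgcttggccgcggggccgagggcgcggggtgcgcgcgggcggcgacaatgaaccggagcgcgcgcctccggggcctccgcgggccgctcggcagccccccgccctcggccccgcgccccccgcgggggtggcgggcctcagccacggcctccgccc
Nr4a3, chr4:48045055-48045354, plus strand: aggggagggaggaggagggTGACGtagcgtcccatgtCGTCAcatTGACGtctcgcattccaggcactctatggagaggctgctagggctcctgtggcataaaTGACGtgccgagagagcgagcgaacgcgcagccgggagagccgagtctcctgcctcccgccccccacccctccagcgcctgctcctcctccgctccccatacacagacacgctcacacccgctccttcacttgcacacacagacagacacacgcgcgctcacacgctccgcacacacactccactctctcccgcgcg
Each window held 4 half-sites. In Nr4a1 they lay on the minus strand, with first bases at -233, -213, -69 and -40 from the start. In Nr4a2 they lay at -200 and -144 on the minus strand and at -123 and -111 on the plus strand. Nr4a3 had them at -231, -205 and -147 on the plus strand and at -213 on the minus strand. At least 1 half-site was found in 20.8% of the 32851 RefSeq windows of this length, and at least 4 in 76 of them (0.231%). The half-site contains a CG, and the windows were rich in G and C, at 72.3% for Nr4a1, 81.7% for Nr4a2 and 64.7% for Nr4a3. The full palindrome TGACGTCA, which holds overlapping half-sites on both strands, was in none of the 3 windows and in 1.79% of all. The NBRE, AAAGGTCA on either strand, was in none of the 3 and in 1.51% of all. A match is a string of letters and no measurement of binding.

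**Figure D1:**
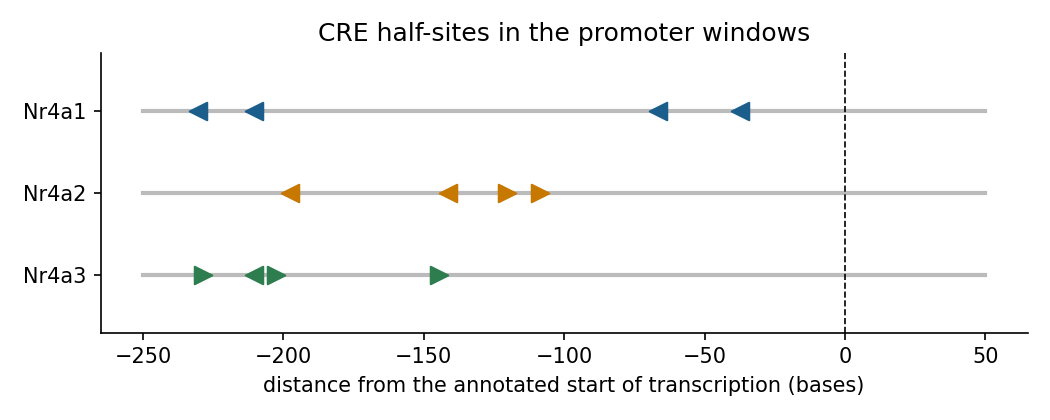
Positions of TGACG (triangles pointing right) and of CGTCA, the same half-site on the other strand (triangles pointing left), along the promoter windows of Nr4a1, Nr4a2 and Nr4a3. The x axis is the distance in bases from the annotated start; each gene has 4 half-sites, all before the start.

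In build GRCm38 with the GENCODE M21 annotation, Nr4a1 (ENSMUSG00000023034.7) lies on chromosome 15 from 101254269 to 101274795 on the plus strand. Nr4a2 (ENSMUSG00000026826.13) lies on chromosome 2 from 57106830 to 57124003 on the minus strand. Nr4a3 (ENSMUSG00000028341.9) lies on chromosome 4 from 48045153 to 48086447 on the plus strand. None of the 3 shares exonic bases with another annotated gene. Their transcripts share no 50-base word with each other (0 shared in each pairing), so reads of that length would not be split between members. Coding transcripts of Nr4a1 begin at 2 positions, those of Nr4a2 at 3 and those of Nr4a3 at 2, while 2 coding transcripts of each gene end within 10 bases of the gene's end.

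Nr4a1 was the NR4A gene with the highest level in the control. Its level was 9.08 (control, about 576 reads), 8.01 (exercise control, 217 reads) and 8.61 (SQH, 508 reads). The control was the highest of the 3 libraries and the exercise control the lowest. Nr4a3 went the other way, with 6.02 (control, 69 reads), 8.04 (exercise control, 222 reads) and 8.60 (SQH, 506 reads). Both exercised libraries lay above the control, and the SQH library was the highest. Nr4a2 had the lowest level of the 3 genes in every library, with 5.19 (control, 39 reads), 6.72 (exercise control, 89 reads) and 6.50 (SQH, 118 reads). Its exercised libraries also lay above the control, and their order is not resolved at this depth. In whole muscle, fewer cells that carry a transcript and less of it per cell cannot be told apart.

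**Figure D2:**
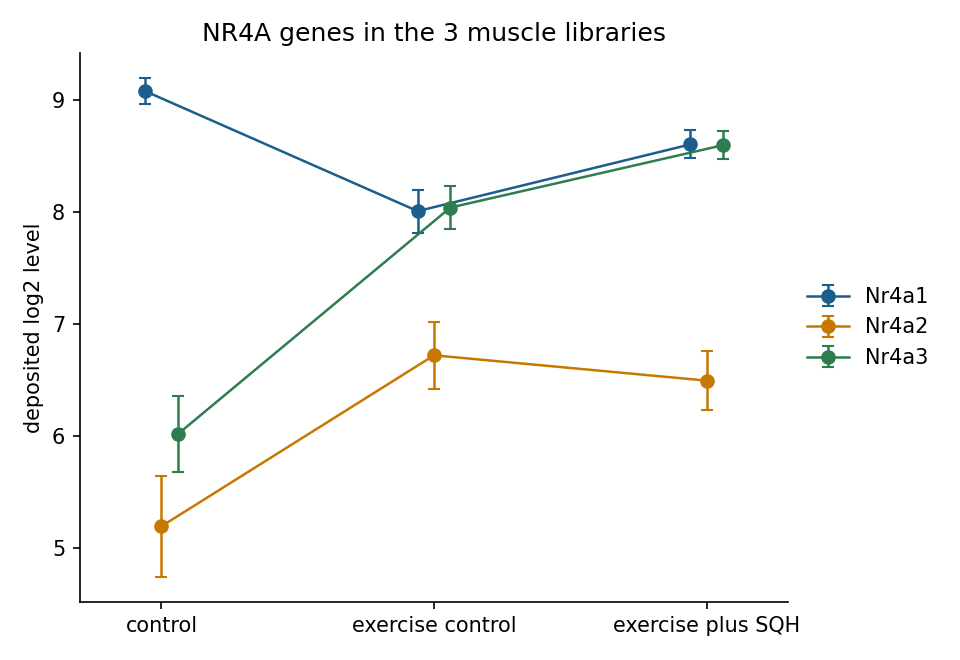
Deposited log2 level (y axis) of Nr4a1, Nr4a2 and Nr4a3 in the control, exercise control and exercise plus SQH libraries (x axis), 1 library each; bars are 95% intervals of counting reads only and lines join points of 1 gene. Nr4a1 is highest in the control at 9.08, while Nr4a3 stands at 6.02 in the control and 8.60 with SQH and Nr4a2 at 5.19 and 6.50.

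A gene was called at a 2-fold difference or more (1 on the log2 scale) if its mean linear level, 2 to the power of the deposited value, was at least 66.5, the median of the rows above 0 in any library. This left 7857 rows. In the control alone, Nr4a2 (linear level 36.6) and Nr4a3 (64.8) lay below that minimum. Their means of 77.4 and 239 passed it through the exercised libraries. A count of called members, and any rank of these genes among rows past the minimum, is therefore a description only.

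Exercise control muscle was set against control muscle to see what differed in the exercised group without SQH. Nr4a3 was called higher, by 2.02 ± 0.20, which is 4.07-fold. Nr4a2 was called higher by 1.53 ± 0.28, or 2.88-fold. Nr4a1 was called lower, at -1.07 ± 0.11, which leaves 0.476 of the control level. Its 95% counting interval, from -1.30 to -0.85, contains the threshold, so the side of the threshold is within counting error while the direction is not. The gap between Nr4a3 and Nr4a1 was 3.10 ± 0.23 and that between Nr4a2 and Nr4a1 was 2.60 ± 0.30. The gap of 0.50 ± 0.34 between Nr4a3 and Nr4a2 had a counting interval that includes 0 (-0.17 to 1.17). Over all tested rows 8.29% were called, 2.95% higher and 5.33% lower, and the median difference was -0.05 (log2). Nr4a3 ranked 15 and Nr4a2 ranked 50 from the top among the 7857 rows, and 4.42% of rows had a lower difference than Nr4a1. The exercise control library also stood apart in fibre and nerve markers: all 8 slow-fibre markers were called lower, and the 5 nerve and Schwann cell markers past the minimum were called higher. Their part in the NR4A differences was not tested.

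Exercise plus SQH was set against the control, in the comparison that leaves the exercise control library out. Nr4a3 was called higher by 2.58 ± 0.19, which is 5.98-fold, and ranked 7 from the top of the 7857 rows. Nr4a2 was called higher by 1.30 ± 0.27, or 2.46-fold, and ranked 54. Nr4a1 lay at -0.48 ± 0.09 and was not called. Here 3.02% of rows were called, 1.76% higher and 1.26% lower. The opposite signs of Nr4a1 and the other two members were thus measured in both exercised libraries, although both differences use the same control library. Nr4a3 exceeded Nr4a2 by 1.28 ± 0.32 in this comparison.

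The third comparison, of the SQH library with the exercise control, was between exercised mice with and without SQH, 1 library each. No NR4A gene was called, while 8.01% of all rows were, 5.68% higher and 2.33% lower. Nr4a1 differed by 0.60 ± 0.12 (1.51-fold) and Nr4a3 by 0.56 ± 0.12 (1.47-fold), so these 2 genes stood higher with SQH by nearly equal amounts. The difference between them was -0.04 ± 0.16, with a counting interval from -0.36 to 0.28. Nr4a2 lay at -0.23 ± 0.20, an interval from -0.62 to 0.17 that includes 0. Of all tested rows, 85.6% had a lower difference than Nr4a1 and 84.3% a lower one than Nr4a3. All 8 slow-fibre markers were called higher here, and the 5 nerve and Schwann cell markers past the minimum were called lower. Fibre and nerve content thus differed together with SQH between these libraries, and its part in the NR4A differences was not tested.

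The summed NR4A level hid this exchange between members. On the linear scale the control sum of 643 and the exercise control sum of 626 differed little, at a log2 difference of -0.04 ± 0.08. With SQH it was 867, which is 0.47 ± 0.08 above the exercise control and 0.43 ± 0.07 above the control. Nr4a1 made up 84.2% of NR4A reads in the control (95% Wilson interval 81.3% to 86.8%, over 684 reads). In the exercise control its share was 41.1% (37.0% to 45.3%, 528 reads), and with SQH it was 44.9% (42.0% to 47.8%, 1132 reads). For Nr4a3 the control share was 10.1% (8.05% to 12.6%), the exercise control share 42.0% (37.9% to 46.3%) and the SQH share 44.7% (41.8% to 47.6%). In both exercised libraries the intervals of Nr4a1 and Nr4a3 overlapped, so their order there is not resolved, whereas in the control Nr4a1 stood far above Nr4a3. The share of Nr4a2 was 5.70% (4.20% to 7.70%), 16.9% (13.9% to 20.3%) and 10.4% (8.78% to 12.3%). These intervals cover counting error only, and the read numbers are estimates.

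**Figure D3:**
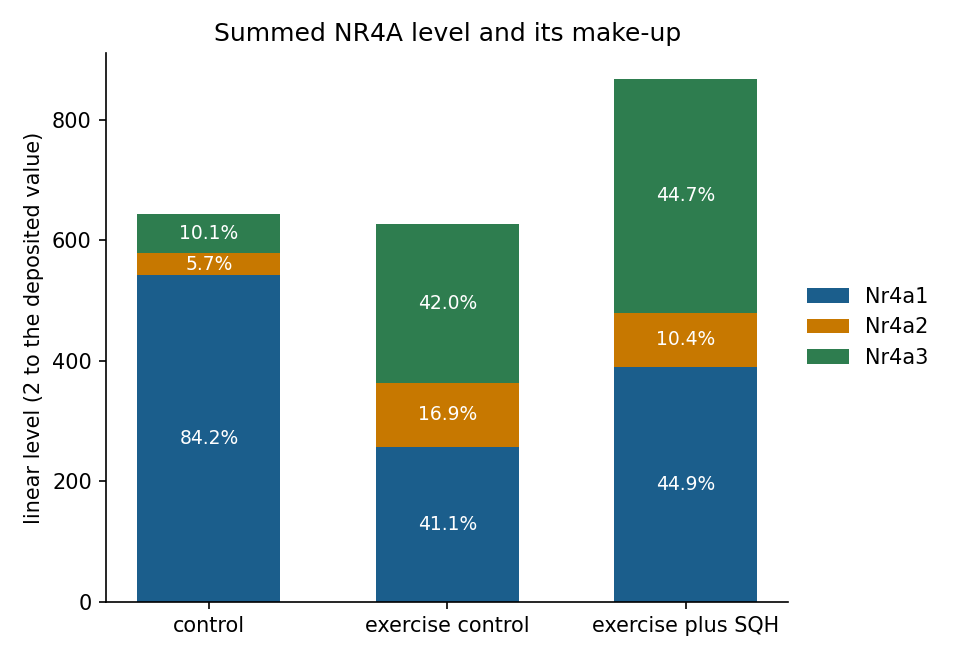
Stacked linear levels (y axis, from 0) of Nr4a1, Nr4a2 and Nr4a3 in each library (x axis), with the percentage of NR4A reads from each gene. The control and exercise control bars are of nearly the same height (643 and 626), but Nr4a1 makes up 84.2% of the control and 41.1% of the exercise control.

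The other nuclear receptor genes gave a background within the same superfamily. Of 46 listed, 46 were found, 37 lay above 0 in some library and 24 passed the minimum. In the exercise control against the control, 0 of the 24 were called higher and 5 lower, and their median difference was -0.17. Over all tested rows, 2.95% were called higher and 5.33% lower. Among the 27 receptors with the NR4A genes included, Nr4a3 had the highest difference and Nr4a2 ranked 2, while Nr4a1 ranked 5 from the bottom. The lower receptors had Esrrb (-1.48 ± 0.29) and Nr1d1 (-1.39 ± 0.13) at the end. Esrrb encodes an estrogen-related receptor and Nr1d1 encodes the clock repressor REV-ERB alpha; its 3' end overlaps Thra on the other strand, so reads of the 2 genes may be mixed. Thrb, a thyroid hormone receptor gene, lay at -1.09 ± 0.16, and Esrrg, an estrogen-related receptor gene of oxidative muscle, at -1.09 ± 0.15. Rara, the retinoic acid receptor alpha gene, lay at -1.06 ± 0.19. The difference of Nr4a1 thus fell among those of these 5 receptors.

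In the SQH library against the control, 0 of the 24 other receptors were called higher and 1 lower, against 1.76% and 1.26% of all tested rows. The lower one was Rara (-1.04 ± 0.17), and the median of the 24 was 0.00. The counts leave out receptor genes below the minimum. Among those, Nr2c1 (1.05 ± 0.25), Nr2f1 (1.08 ± 0.29) and Rorb (1.24 ± 0.59) lay more than 2-fold above the control with SQH. Nr0b2 (-1.49 ± 0.87) and Nr3c2 (-1.53 ± 0.997) lay more than 2-fold below it. Receptor genes at 0 in either library gave no difference. Nr4a3 and Nr4a2 again ranked 1 and 2 of 27, and Nr4a1 ranked 26. Between the SQH and exercise control libraries, Esrrb (1.19 ± 0.29) and Nr1d1 (1.06 ± 0.13) were called higher and none lower. Of all tested rows, 5.68% were called higher and 2.33% lower in that comparison. By level, in the order control, exercise control, SQH, Nr4a1 ranked 10, 16 and 14 among the 27, Nr4a3 ranked 24, 14 and 15, and Nr4a2 ranked 27, 22 and 25.

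**Figure D4:**
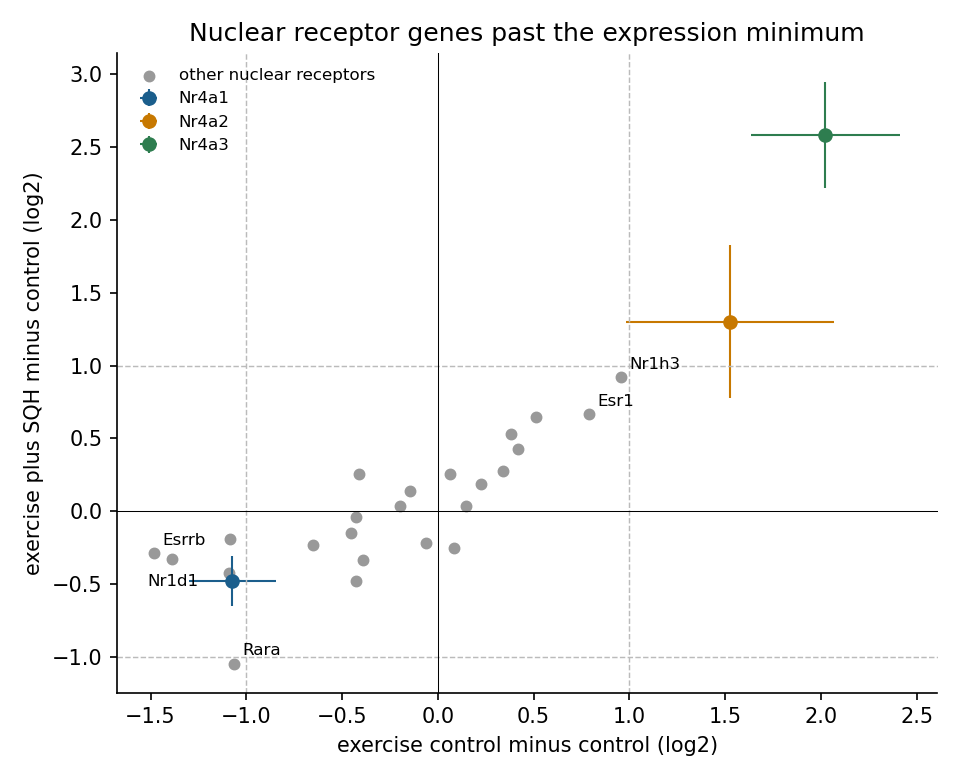
Log2 difference from the control of the exercise control (x axis) and of exercise plus SQH (y axis) for the 27 nuclear receptor genes past the expression minimum; both axes use the same control library. Coloured points are NR4A genes with 95% counting intervals, grey points are the other 24 and dashed lines mark 2-fold; Nr4a3 and Nr4a2 are at the upper right and Nr4a1 at the lower left.

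The retinoid X receptor genes, whose products pair with Nur77 and Nurr1, were high in all 3 libraries. Rxra stood at 9.51, 9.36 and 9.65. Rxrb stood at 9.29, 9.51 and 9.48, and Rxrg at 8.35, 8.29 and 8.13. None was called in any comparison. Of 12 partner and coregulator genes, all past the minimum, 1 was called lower in the exercise control against the control and none in the other comparisons. That gene was Ncoa1, a steroid receptor coactivator gene (-1.18 ± 0.22), where 5.33% of all tested rows were called lower. In the other comparisons 8.01% (SQH against exercise control) and 3.02% (SQH against control) of all tested rows were called. The corepressor gene Ncor1 lay at -0.41 ± 0.04 with SQH against the control and the acetyltransferase gene Kat2b at -0.10 ± 0.04. Relative to the exercise control these 2 genes lay at -0.30 ± 0.04 and 0.09 ± 0.05.

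Signalling genes upstream of the NR4A genes were read next, from cyclic AMP signalling through CREB and calcium-dependent enzymes to MEF2 and SRF. Of 27 genes counted, 19 passed the minimum, and none was called in the exercise control against the control (median 0.04). Over all tested rows 8.29% were called in that comparison, so few calls would be looked for among 19 genes. The genes of highest level there were Mef2c, a MEF2 factor gene (-0.59 ± 0.01), and the calcineurin gene Ppp3ca (0.40 ± 0.02). Relative to the exercise control, Srf, the serum response factor gene, was called higher in the SQH library (1.18 ± 0.10) and none lower, with a median of 0.13. Of all tested rows, 5.68% were called higher there. Relative to the control, none of the 19 was called with SQH (median 0.08), against 3.02% of all tested rows. Mef2c lay at -0.58 ± 0.01 and Ppp3ca at -0.03 ± 0.02. Creb1, the CREB gene itself, stood at 9.22, 9.30 and 8.75. Its difference of -0.47 ± 0.08 with SQH against the control was below the size rule. The counts of upstream genes leave out those below the minimum. Among those, Crtc2 stood at 5.84, 0.31 and 6.58 (about 61, 1 and 124 reads). Its differences were -5.53 ± 1.42 (exercise control against control) and 6.26 ± 1.42 (SQH against exercise control). Camk4 (3.12 ± 1.07) and Mef2d (1.05 ± 0.36) lay more than 2-fold above the control with SQH. The others above 0 in both libraries lay within 2-fold.

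Other early response genes, many of them targets of CREB or SRF, were set beside the NR4A genes. Of 30 listed, 25 passed the minimum. In the exercise control against the control, 2 were called higher and 1 lower, against 8.29% of all tested rows, with a median of 0.24 and 17 of 25 above 0. Klf10, a TGF-beta-inducible repressor gene (1.31 ± 0.17), and Maff, a small MAF factor gene (1.18 ± 0.27), were the higher ones. The lower one was Cyr61, a gene of a secreted matrix protein (-4.06 ± 0.17). All 25 genes past the minimum lay below Nr4a2 and Nr4a3, and Cyr61 was the 1 gene of the 25 that lay below Nr4a1. This order does not hold for the listed genes that the minimum left out. Egr2 (2.14 ± 1.16) lay above Nr4a3, and Egr3 (1.75 ± 0.44) and Myc (1.58 ± 0.998) lay between Nr4a2 and Nr4a3. Fosb (-1.70 ± 1.15) lay below Nr4a1. The counting intervals of Egr2, Myc and Fosb include 0. Gem had log2 levels of 0 (control) and 3.70 (exercise control). Crem, which encodes the CREB relative that includes the repressor ICER, stood at 6.06, 6.88 and 7.12. Its exercised libraries lay above the control, and its order between them is not resolved, with an SQH minus exercise control interval from -0.11 to 0.60.

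In the SQH library, 6 of the 25 were called higher than the control and 0 lower, with a median of 0.46 and 21 above 0. Over all tested rows, 1.76% were called higher and 1.26% lower. Maff lay at 1.95 ± 0.24, the stress factor gene Atf3 at 1.94 ± 0.15, Ppargc1a, the gene of the coactivator PGC-1alpha, at 1.65 ± 0.04 and Rrad, a small GTPase gene, at 1.38 ± 0.08. Crem (1.06 ± 0.20) and Fos (1.02 ± 0.24) were the other 2. Nr4a3 lay above all 25 of them. Nr4a1 lay below 24 of the 25, all but the clock gene Per1 (-0.66 ± 0.09). Of the listed genes below the minimum, Egr2 (3.63 ± 1.06) and Myc (2.73 ± 0.89) lay above Nr4a3 and Egr3 (2.42 ± 0.40) below it. Fosb lay at -2.31 ± 1.14, and Gem stood at 0 in the control and 4.59 with SQH. Set against the exercise control, 5 of the 25 were called higher with SQH and 0 lower (median 0.24). Over all tested rows the shares were 5.68% and 2.33%. Cyr61 (4.43 ± 0.17), Atf3 (2.75 ± 0.21), Rrad (1.68 ± 0.10) and the CREB-induced kinase gene Sik1 (1.40 ± 0.17) led the 5. Nr4a1 and Nr4a3 were above the exercise control in this comparison by less than the size rule. Egr3, which did not pass the minimum, stood at 3.82, 5.56 and 6.23, in the same order as Nr4a3.

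**Figure D5:**
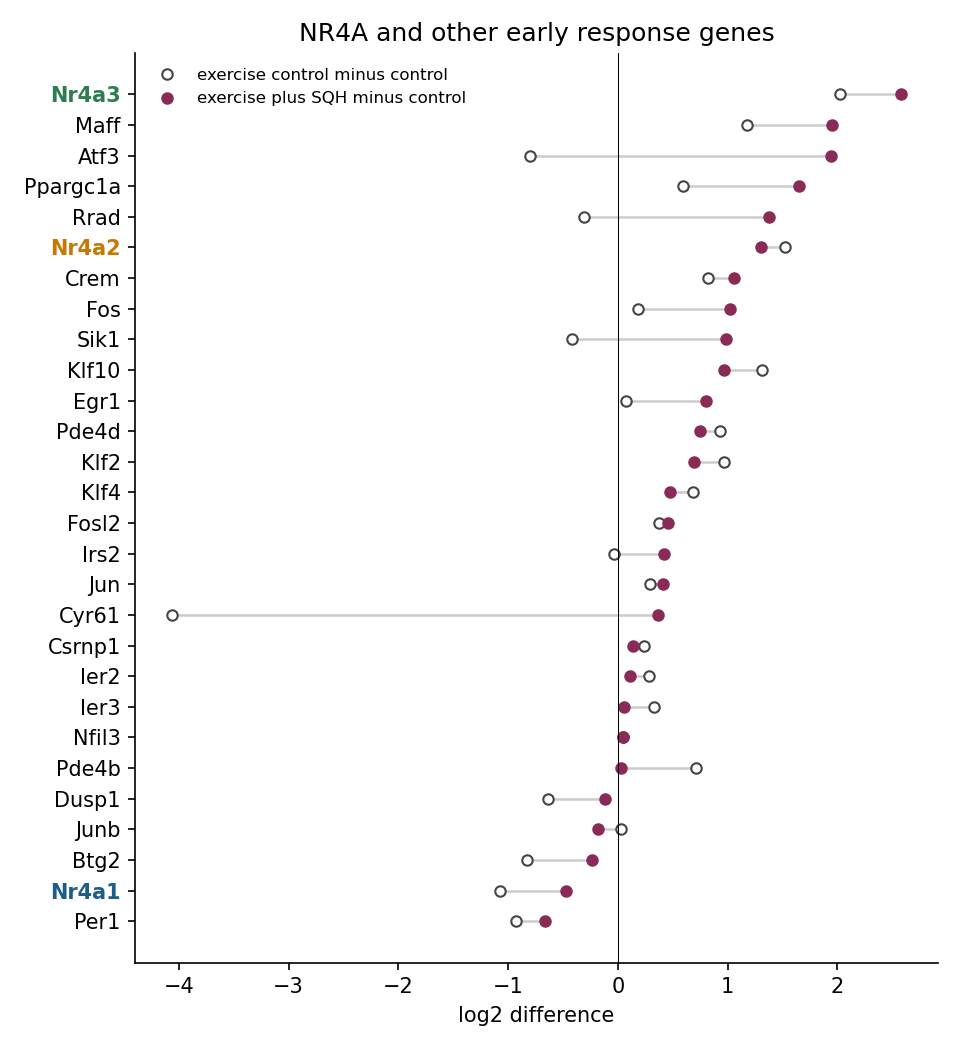
Log2 difference from the control (x axis) of the 3 NR4A genes and the 25 other early response genes past the minimum (y axis, sorted by the SQH difference); open points are the exercise control, filled points exercise plus SQH, and both use the same control library. Nr4a3 has the highest filled point (2.58), and Nr4a1 (-0.48) the lowest but for Per1. Listed genes below the minimum are not shown.

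Of the 20 early response genes with a RefSeq window, 15 held at least 1 CRE half-site, and Dusp1 alone held at least 3. Of 40 other nuclear receptor genes with a window, 12 held at least 1, and Nr2e1 alone held at least 3. Of 21 upstream signalling genes with a window, 12 held at least 1 and 2 held at least 3. For a gene with several windows the largest count was taken. The shares over all windows, 20.8% with at least 1 and 1.03% with at least 3, are per window. Dusp1, a phosphatase gene of the MAP kinase pathway, stood at 9.77, 9.14 and 9.66 and like Nr4a1 was lowest in the exercise control.

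Muscle genes that earlier work ties to NR4A receptors are mainly genes of glycogen and glucose use, fatty acid handling and energy control. Of 19 listed, 18 passed the minimum. In the exercise control against the control, 2 were called higher and 0 lower, against 8.29% called of all tested rows, so the count is near the background. The median was 0.50, against -0.05 over all tested rows, and 14 of 18 lay above 0. Fbp2, the muscle fructose bisphosphatase gene, stood at 7.48, 9.11 and 6.87 (1.63 ± 0.12 for the exercise control). Pygm, the muscle glycogen phosphorylase gene, stood at 13.15, 14.17 and 13.43 (1.02 ± 0.02). Both were highest in the exercise control, the library in which Nr4a1 was lowest and Nr4a3 intermediate. The fast-fibre markers had a median of 0.48 in the same comparison, and the part of fibre type in these differences was not tested. Slc2a4, the gene of the insulin-responsive glucose transporter GLUT4, stood at 12.70, 12.73 and 12.55.

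Between SQH and the exercise control, 1 of the 18 was called higher and 2 lower, against 8.01% called of all tested rows, with a median of -0.29. Ppargc1a was higher (1.06 ± 0.04), and Fbp2 (-2.24 ± 0.13) and the myostatin gene Mstn (-1.52 ± 0.13) were lower. Between SQH and the control, Ppargc1a was the 1 gene called higher and 0 were lower, with a median of 0.13. Of all tested rows, 3.02% were called in that comparison. Ppargc1a stood at 10.75, 11.35 and 12.41, in the same order of libraries as Nr4a3. Lpin1, the lipin-1 gene, stood at 11.58, 12.47 and 12.18, above the control in both exercised libraries as Nr4a2 was, with neither difference reaching 2-fold.

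Genes with the most similar pattern were found by the distance between the 3 log2 values after each gene was centred on its own mean, over the 3 libraries and 7511 candidate rows. Nearest to Nr4a1 were Foxo6 (distance 0.02), Dok5 (0.02), Fndc5 (0.03), Mrps26 (0.04) and Lrrc39 (0.04). Foxo6 encodes a FOXO transcription factor and Fndc5 the precursor of irisin, and Fndc5 stood at 11.91, 10.84 and 11.47. Nearest to Nr4a2 were Peg3 (0.05), an imprinted zinc finger gene, Glul (0.07), the glutamine synthetase gene, and Fmod (0.08), which encodes the tendon proteoglycan fibromodulin. Cilp2 (0.09) and Fam117a (0.12) followed. Nearest to Nr4a3 were Pfkfb3 (0.13), a glycolytic control enzyme gene, Mustn1 (0.21), the RUNX factor gene Runx1 (0.26), the ectodysplasin A2 receptor gene Eda2r (0.41) and Natd1 (0.46). Pfkfb3 stood at 8.84, 10.73 and 11.24. With 3 values a gene, such a likeness is a description only. The distance between Nr4a2 and Nr4a3 was 0.91 and that between Nr4a1 and Nr4a3 was 2.51.

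Cell type markers were summed on the linear scale in each library and are given in the order control, exercise control, SQH. All 10 fast-fibre markers were above 0 everywhere, with sums of 1002520, 1201680 and 1096690. All 8 slow-fibre markers were too, with sums of 547394, 46241 and 432734, and all 8 were called lower in the exercise control against the control. The 8 nerve and Schwann cell markers were above 0 everywhere and summed to 1249, 4430 and 1346. In the SQH library the slow-fibre sum was -0.34 and the nerve sum 0.11 from the control on the log2 scale. Nr4a1 was lowest where the slow-fibre sum was lowest, and the part of fibre type in its difference was not tested.

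Of 10 macrophage markers, 8 were above 0 in every library, with sums of 319, 294 and 571, and with Cd14 at 0 in the exercise control and Adgre1 at 0 with SQH. Of these, 1 passed the minimum, C1qa, and it was not called in any comparison (0.77 ± 0.13 with SQH against the control). Below the minimum, Csf1r (1.49 ± 0.28), C1qb (2.83 ± 1.08), C1qc (2.79 ± 0.62) and Cd68 (2.91 ± 1.08) lay more than 2-fold above the control with SQH. Mrc1 (0.29 ± 0.24), Cd14 (0.05 ± 0.50), Lyz2 (-0.11 ± 0.70) and Itgam (-0.18 ± 0.53) did not. Of 7 lymphocyte markers found, none was above 0 in every library. Of 5 neutrophil markers found, 3 were, with sums of 37.6, 15.6 and 27.7 and with Retnlg and Mpo at 0 throughout. The 8 endothelial markers summed to 1879, 2587 and 2042, and none of the 5 past the minimum was called in any comparison. The 7 fibroblast markers summed to 10327, 15682 and 12027. In the exercise control against the control 6 of the 7 lay above 0, and the collagen gene Col1a1 was called higher (1.28 ± 0.04).

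In 3 other marker lists the sum depended strongly on 1 gene, so single markers are given as linear levels in the same order of libraries. The 5 satellite cell markers summed to 921, 1484 and 1076, of which Chodl made 587, 1309 and 812. Pax7, the transcription factor gene that defines satellite cells, stood at 107, 55.7 and 81.1 and Vcam1 at 176, 91.5 and 129. Chodl was thus called higher in the exercise control against the control, whereas the median of the 3 markers past the minimum was -0.94 and 2 of them lay below 0. The 8 smooth muscle and pericyte markers summed to 8843, 6124 and 5067, and the pericyte gene Rgs5 made 5777, 2055 and 1882 of it. Rgs5 was called lower in both exercised libraries against the control. Of the 7 markers past the minimum, 4 lay above 0 in the exercise control (median 0.02). The 6 adipocyte markers summed to 4325, 4214 and 4630, nearly all of it the lipase gene Pnpla2 (4145, 4113 and 4300), with Lep at 0 throughout and Cidec at 0 in the exercise control. Adipoq, the adiponectin gene, stood at 67.7, 14.3 and 68.2 and the lipid droplet gene Plin1 at 18.8, 10.7 and 47.6, both below the minimum. Cfd, the adipsin gene, was called higher with SQH against the control (1.22 ± 0.19) and against the exercise control (1.25 ± 0.20).

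The 5 tendon markers summed to 696, 1048 and 809, with Mkx at 0 in the control, and 4 passed the minimum. Of these 4, 2 were called higher in each exercised library against the control. Over all tested rows, 2.95% were called higher in the exercise control and 1.76% with SQH. Tnmd, the tenomodulin gene, differed by 1.59 ± 0.31 in the exercise control and by 1.74 ± 0.29 with SQH. Fmod, the gene already given as near to Nr4a2, was 2.82-fold higher in the exercise control and 2.28-fold higher with SQH. The tendon transcription factor gene Scx was called lower in the exercise control (-1.18 ± 0.16) and lay at -0.60 ± 0.12 with SQH. Thbs4 lay at 0.98 ± 0.11 in the exercise control and at 0.08 ± 0.11 with SQH, and was not called. The part of these cell types in the NR4A values was not tested.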

How the data were processed

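RNA was extracted with Trizol and made into Lexogen QuantSeq 3' libraries, per the labels' protocols. Bowtie2, edgeR and mm10 are named in the submitters' processing notes, without versions or roles; nothing read here says how reads were counted, on which annotation or strand, or how genes were filtered. Each of the 3 deposited files gives a log2 value per gene for 1 library, which the authors adjusted for library size as judged from the values: raised to the linear scale, low values bunch at whole multiples of 1 step (0.94, 1.188 and 0.766 in control, exercise control and SQH). Of linear values under 9, 100%, 95.7% and 84.4% were no more than 0.2 step off such a multiple. Reads were estimated as linear value over step, which is too rough for a count model. A value of 0 was taken as linear 0.

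Groups came from sample titles. The size rule stands in the report; no test was run. Members and lists (5 pathway and 12 cell type lists, 220 of 222 genes found on 1 row) were chosen with earlier results of these data known. Named besides the NR4A and RXR genes were, per pathway list and comparison, up to 4 called genes with the largest difference or, with none called, the 2 of highest level, and the 5 nearest patterns per member, leaving out symbols on several rows, model names, pseudogenes and small RNAs. Rara, Crem, Fos, Per1, Egr3, Creb1, Slc2a4, Lpin1, Dusp1, Nr2e1 and single cell type markers were named after their values were seen. So were Egr2, Fosb, Gem and Myc, the upstream genes Camk4, Crtc2 and Mef2d, and the receptor genes Nr0b2, Nr2c1, Nr2f1, Nr3c2 and Rorb. Of the listed genes, 1 is not reported here and does not enter its list's counts. Scaling, pseudocount, expression minimum and fold were varied. Python 3.11.15, pandas 2.3.3, numpy 2.4.6, scipy 1.17.1 and matplotlib 3.10.9 were used.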

Additional observations from a re-analysis of the deposited data

How the results depend on the processing

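All 45 alternative values of the member differences (3 scalings and pseudocounts of 1 and 16) kept their sign and stayed within the counting interval of the value given. For the exercise control against the control, Nr4a1 ranged from -1.07 to -1.0, Nr4a2 from 1.21 to 1.83 and Nr4a3 from 1.79 to 2.11. The number of NR4A genes called there was 1 in place of 3 with the upper-quartile minimum, which Nr4a2 and Nr4a3 do not reach, and 1 at 3-fold. With SQH against the exercise control it was 1 in place of 0 at 1.5-fold. With SQH against the control it was 0 in place of 2 with the upper-quartile minimum and 1 at 3-fold. Over all rows, the counts of 651, 629 and 237 (exercise control against control, SQH against exercise control, SQH against control) became 4259, 4196 and 3367 with no minimum and 233, 218 and 58 with the upper-quartile minimum. They became 2012, 1888 and 1082 at 1.5-fold and 167, 159 and 44 at 3-fold. A pseudocount of 16 gave 143 in place of 237. No paired analysis was possible because each group has 1 library and the labels carry no replicate numbers; for the same reason no library could be left out of a comparison.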
